A study of Mus musculus with 6 samples.

Results

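The nuclear-encoded subunits of the respiratory chain were described in RNA-seq of 6 mouse brain tumor libraries. Members were all rows of the count table whose symbol is Nduf and a letter A, B, C, S or V with a number, the 4 Sdh genes, the Uqcr genes with Cyc1, the Cox4 to Cox8 genes with a subunit letter, and the Atp5 genes. The rule used no measured value. It found 82 genes of 24537 rows, of which 36 belong to complex I by name, 4 to complex II, 9 to complex III, 16 to complex IV and 17 to complex V. The tumors were made in CD-1 IGS mice by in utero electroporation, in which DNA is driven into brain cells of the embryo by an electric pulse. Every tumor, Control included, was titled with PdgfraD482V, a mutant form of the PDGF receptor alpha, and DNp53, a dominant-negative p53. In 3 libraries the titles add FOXR2, a forkhead transcription factor, and in 3 they add Control. No source used here gives an age, the promoters that drive the constructs, or any pooling of animals. It is also unstated whether each library is a different animal, and p-values therefore measure only the spread between these samples, which may be technical.

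For 6 of 6 libraries, the titles and the deposited sample sheet name opposite groups. Groups here follow the titles, and a correct sheet would reverse every direction below. The libraries held 13429489 to 17927025 counts. Markers of glioma and oligodendrocyte precursor cells, Pdgfra included, summed to 7359, 4886 and 6740 CPM (counts scaled to library size with TMM factors) in FOXR2 replicates 1 to 3 and to 4808, 4397 and 4434 CPM in the Control replicates. The sums did not overlap between the groups, but taken singly each of the 5 markers did. Whether reads of the PdgfraD482V construct were counted as Pdgfra is unknown. The 12 microglia and macrophage markers summed to 1486 CPM in FOXR2 replicate 2 and to between 2.86 and 6.59 CPM in the other 5 libraries. The 8 mature neuron markers summed to 266, 133 and 117 CPM in FOXR2 replicates 1 to 3. In the Control replicates they summed to 38.5, 43.8 and 33.7 CPM, and none of the 8 was at 0 in all libraries. Of the 7 tested as described below, 4 had all FOXR2 libraries above all Control, against 13.0% of all genes. Among the 7, 2 were called higher, Syn1 and Syt1, against 0.908% of all genes, and 1 was fitted below 0. The 8 mature oligodendrocyte markers ranged from 216 to 5128 CPM, with both extremes among the libraries titled FOXR2. Of 5 red blood cell markers, 4 were at 0 throughout. The part of these cell types in the results below was not tested, and in bulk tumor RNA fewer cells of a type and less RNA per cell cannot be told apart.

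The respiratory chain sits in the inner mitochondrial membrane. Complexes I and II pass electrons from NADH and succinate to ubiquinone, complex III passes them to cytochrome c, and complex IV to oxygen. Complexes I, III and IV pump protons, and complex V, the ATP synthase, uses the proton gradient to make ATP. A few core subunits of complexes I, III, IV and V are encoded in mitochondrial DNA, and all others, including the whole of complex II, are encoded in the nucleus and imported. The count table had no row for a mitochondrially encoded gene, so those partners were not analysed here.

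Without an offset for transcript length and GC content, most subunit genes were slightly lower in the libraries titled FOXR2, and 1 member was called. After a filter on low counts, 78 of the 82 members were tested among 13101 genes with edgeR's quasi-likelihood test, where a call means a Benjamini-Hochberg adjusted p under 0.05. Uqcrh, a small subunit of complex III, was the only member called, and it was lower in the libraries titled FOXR2. Over all genes tested, 1.38% were called lower and 0.908% higher, so 1 of 78 members lower and 0 of 78 higher is near the background. At an unadjusted p under 0.05, 19 members were lower and 3 higher in the libraries titled FOXR2, against 13.0% and 11.9% of all genes. In 25 members all 3 libraries titled FOXR2 lay below all 3 titled Control, against 17.3% of all genes, and in 5 members they lay above, against 13.0%. The fitted fold change was below 0 for 55 of the 78, with a median of -0.21 on the log2 scale, where the median over all genes was 0.01. Without FOXR2 replicate 2, the library with the microglia markers, the members' median was -0.20. Many genes of these small subunits are known to have processed pseudogenes elsewhere in the genome, and how the authors counted reads that map to several places is unknown.

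**Figure D1:**
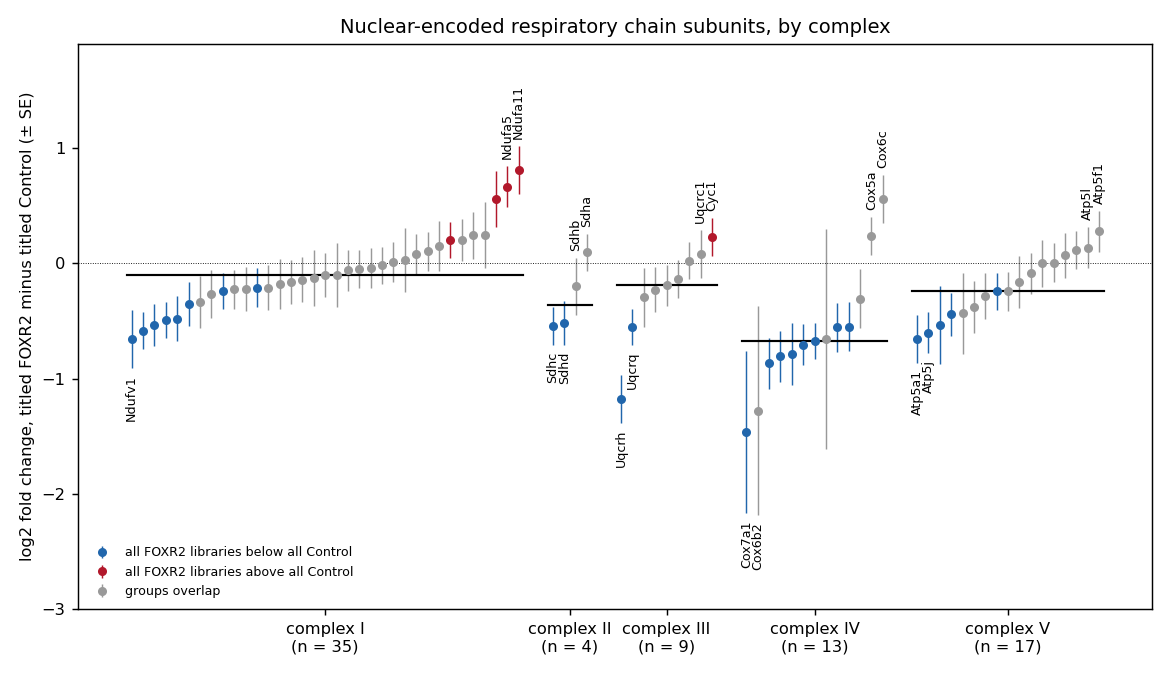
Each point is 1 tested member, with its log2 fold change (libraries titled FOXR2 minus titled Control) and its standard error, ordered within complex I to V. Black lines mark the medians of each complex, which run from -0.10 in complex I to -0.67 in complex IV, and colours show the 25 members with all FOXR2 libraries below all Control and the 5 with them above.

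The size of this difference varied by complex. The median log2 fold change was -0.10 over 35 members of complex I, -0.36 over 4 of complex II, -0.19 over 9 of complex III, -0.67 over 13 of complex IV and -0.24 over 17 of complex V. Complex IV was the furthest from 0, and 11 of its 13 tested members were fitted below 0. The 11 include Cox7a1, Cox6a2 and Cox6b2, with low mean levels of 1.80, 2.41 and 3.64 CPM over all libraries. Ndufa4, now known as a subunit of complex IV, had a fold change of 0.56 and is counted in complex I by its name. In the median member, the deviation of log2(CPM + 0.5) from its mean over the libraries was 0.01, -0.11 and -0.16 in FOXR2 replicates 1 to 3. It was 0.02, 0.08 and 0.23 in Control replicates 1 to 3. FOXR2 replicate 1 and Control replicate 1 thus lay side by side, and the distance between the groups came mostly from the other 4 libraries. FOXR2 replicate 3 had the lowest level of all 6 libraries in 33 members, and Control replicate 3 the highest in 36. Within complex IV the deviations were -0.09, -0.40 and -0.39 against 0.11, 0.37 and 0.54, which kept the groups apart in every library. The members together took 1.5%, 1.47% and 1.35% of all counts in FOXR2 replicates 1 to 3 and 1.63%, 1.64% and 1.70% in the Control replicates.

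**Figure D2:**
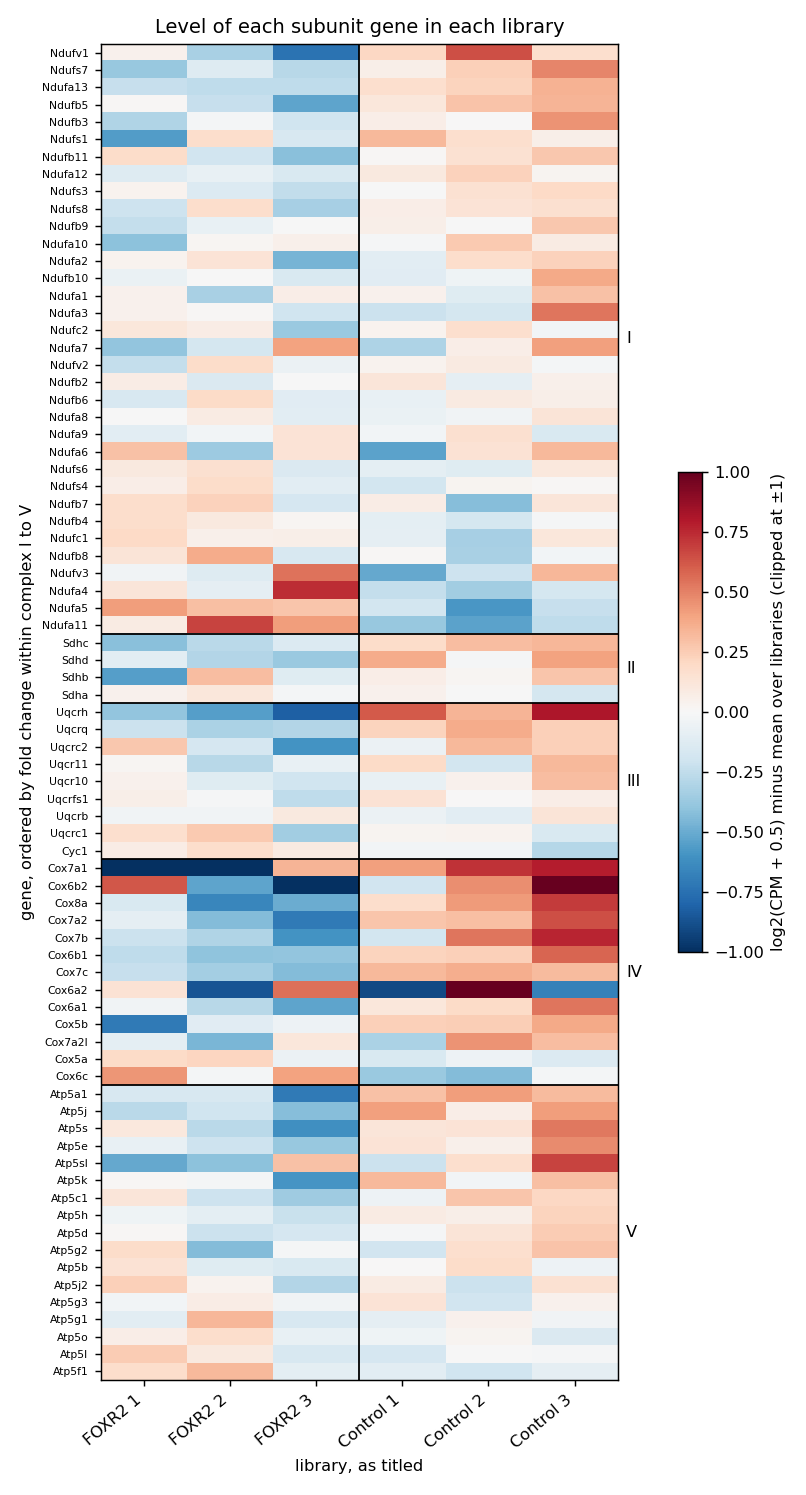
Colour gives the log2(CPM + 0.5) of tested members (rows, by complex) in each library (columns), minus the member's mean over the 6 libraries and clipped at 1 in either direction. Counted over all 78 tested members, FOXR2 replicate 3 holds the lowest value of 33 and Control replicate 3 the highest of 36.

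Transcript length moved with these values. The median transcript of the members was 737 bases long, against 2892 over all genes tested. Genes outside the set with transcripts under 1000 bases had a median log2 fold change of -0.17 over 930 genes, and 60.4% of them were fitted below 0. They include ribosomal protein and mitochondrial import genes, which are described below. Of the 930, 245 had all FOXR2 libraries below all Control and 69 above. At an unadjusted edgeR p under 0.05, 201 were lower and 59 higher. Of the 50 members of that length, 15 lay wholly below Control and 4 wholly above. Genes outside the set with transcripts of 3000 bases or more had a median of 0.13. An offset for transcript length and GC content was then fitted in each library over all tested genes with both values, members included. Such an offset also takes out any difference between the groups that runs with length or GC content, whatever its source. With it, the members' median became -0.001 and 39 of 78 were fitted below 0. With that offset 1.06% of all genes were called lower and 0.706% higher, and no member was called lower and 1, Ndufa11, higher. Complex IV stayed at a median of -0.50, with the same number of members, 11 of 13, below 0. The medians of the others became 0.08 in complex I, -0.20 in complex II, 0.02 in complex III and -0.05 in complex V. Among the members themselves, the 50 with transcripts under 1000 bases had a median without the offset of -0.16 and the 28 longer ones of -0.26.

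Respiratory chain promoters are known to hold sites of a few shared factors, among them NRF1, YY1 and GABP, an ETS family factor. Windows from 250 bases before to 50 bases after the start were taken from RefSeq (GRCm38.p6) for 69 of the 82 members, 75 windows in all, and both strands were searched. The ETS core CCGGAAG was in 21.3% of the members' windows, against 16.7% of the windows of tested genes and 8.86% of all windows in the table. The NRF1 motif GCGCATGCG, which overlaps its own reverse complement, was in 10.7% of the members' windows, against 3.46% and 1.75%. The YY1 motif AAGATGGCG was in 12% of them, against 2.83% and 1.40%. These are matches of letters, not measured sites. The windows of 5 members are shown. Uqcrh was the one called gene, Cox7c and Cox8a had the smallest p-values of complex IV, the complex furthest from 0, and Ndufa11 and Ndufa5 had the highest fold changes of all members. Capitals mark the ETS core, as its reverse complement, in Uqcrh and Cox8a, and the NRF1 motif on both strands in Ndufa11. Cox7c and Ndufa5 held none of the 3 motifs and have no capitals. Ndufa5 had a further window, upstream of the one shown, at chr6:24527641-24527940 (minus strand). It is not shown and also held none of the motifs. In the order shown, the windows lie at chr4:116075021-116075320 (minus strand), chr13:86046746-86047045 (minus strand), chr19:7217567-7217866 (minus strand), chr17:56717512-56717811 (plus strand) and chr6:24527477-24527776 (minus strand).
Uqcrh: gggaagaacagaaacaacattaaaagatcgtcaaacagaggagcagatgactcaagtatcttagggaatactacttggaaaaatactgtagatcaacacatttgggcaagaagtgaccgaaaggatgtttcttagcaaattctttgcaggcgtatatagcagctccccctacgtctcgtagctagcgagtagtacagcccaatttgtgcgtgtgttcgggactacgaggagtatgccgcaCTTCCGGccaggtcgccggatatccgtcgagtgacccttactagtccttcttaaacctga
Cox7c: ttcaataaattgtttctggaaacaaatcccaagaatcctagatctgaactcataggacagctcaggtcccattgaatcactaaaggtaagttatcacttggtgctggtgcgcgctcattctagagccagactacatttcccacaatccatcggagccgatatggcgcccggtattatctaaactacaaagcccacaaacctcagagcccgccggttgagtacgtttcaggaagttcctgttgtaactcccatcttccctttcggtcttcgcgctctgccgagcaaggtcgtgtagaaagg
Cox8a: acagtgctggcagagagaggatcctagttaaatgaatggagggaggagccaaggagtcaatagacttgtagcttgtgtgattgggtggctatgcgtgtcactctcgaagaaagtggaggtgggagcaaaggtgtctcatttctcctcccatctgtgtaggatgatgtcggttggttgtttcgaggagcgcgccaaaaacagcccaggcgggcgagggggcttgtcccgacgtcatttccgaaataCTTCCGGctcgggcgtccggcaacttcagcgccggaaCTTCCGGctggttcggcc
Ndufa11: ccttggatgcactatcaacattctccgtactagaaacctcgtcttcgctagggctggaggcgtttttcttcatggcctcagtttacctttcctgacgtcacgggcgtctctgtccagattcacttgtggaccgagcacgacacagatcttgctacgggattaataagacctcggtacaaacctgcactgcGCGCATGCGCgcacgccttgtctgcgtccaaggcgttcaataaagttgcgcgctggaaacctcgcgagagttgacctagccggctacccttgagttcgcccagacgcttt
Ndufa5: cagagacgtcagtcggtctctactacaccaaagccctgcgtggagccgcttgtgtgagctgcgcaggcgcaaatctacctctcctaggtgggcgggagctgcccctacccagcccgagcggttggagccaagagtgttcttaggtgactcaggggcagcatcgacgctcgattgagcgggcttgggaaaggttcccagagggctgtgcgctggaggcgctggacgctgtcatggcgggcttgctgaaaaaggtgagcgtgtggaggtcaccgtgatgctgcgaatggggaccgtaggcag
Uqcrh held 1 match to the ETS core, and Cox8a held 2. Of the 21 windows of members with all FOXR2 libraries below all Control, 8 held the ETS core, as did 8 of the 54 windows of the other members. The NRF1 motif was in 1 of the 21 and 7 of the 54, and the YY1 motif in 2 of the 21 and 7 of the 54. These splits were not tested.

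In complex I, no gene was called, and the core and accessory subunits were spread on both sides of 0. Of 35 tested members, 23 were fitted below 0, with 8 wholly below Control and 4 wholly above, near the shares over all genes of 17.3% and 13.0%. Ndufv1, the core subunit that binds NADH and flavin, had 184, 143 and 107 CPM in FOXR2 replicates 1 to 3 and 207, 280 and 201 CPM in the Control replicates. FOXR2 replicate 1 came close to the lowest Control library there, and the log2 fold change was -0.66 ± 0.25 (SE; edgeR adjusted p = 0.166). Ndufs1, a core iron-sulfur subunit, overlapped between the groups, with a mean of 66.8 ± 16.9 CPM (SD, n = 3) against 84.6 ± 7.98 (SD, n = 3).

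Ndufa11 and Ndufa5, accessory subunits of the membrane arm and the matrix arm, had the highest fold changes of complex I. Ndufa11 had 58.6, 88.6 and 74.1 CPM in FOXR2 replicates 1 to 3 and 42.5, 38.1 and 46.3 CPM in the Control replicates. Every library titled FOXR2 was above every Control library, and the log2 fold change reached 0.81 ± 0.21 (edgeR adjusted p = 0.0795). With the length and GC offset it became 1.03 and was called, just under the edgeR adjusted p threshold of 0.05. Ndufa5 had 82.1, 75.7 and 74.7 CPM against 54.1, 40.8 and 52.4 CPM, also without overlap, and its fold change was 0.66 ± 0.18 (edgeR adjusted p = 0.0867). Ndufa4 is named for complex I but is now known as a subunit of complex IV. Its levels were 174, 149 and 266 CPM against 135, 125 and 141 CPM, so FOXR2 replicate 3 stood well above the other libraries, with an edgeR adjusted p of 0.207. Ndufs5, a further accessory subunit, was listed at 0 in all 6 libraries and could not be tested. In the annotation (GENCODE M21), 12.8% of the exon bases of Ndufa11 lie opposite exons of Vmac, and no source used here says whether the authors' counting used strand.

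In complex II, which also serves the tricarboxylic acid cycle, the membrane anchors Sdhc and Sdhd were lower in every library titled FOXR2 and the catalytic subunits overlapped between the groups. Sdhc had 148, 164 and 179 CPM in FOXR2 replicates 1 to 3 and 224, 244 and 248 CPM in the Control replicates. Its log2 fold change was -0.54 ± 0.16 (edgeR adjusted p = 0.109). Sdhd had 122, 106 and 101 CPM against 169, 130 and 173 CPM, with a fold change of -0.52 ± 0.19 (edgeR adjusted p = 0.150). Neither passed the test, although neither overlapped between the groups. Sdhb, the iron-sulfur subunit, had 122, 222 and 164 CPM against 187, 181 and 217 CPM, and FOXR2 replicate 2 exceeded each Control library. Sdha, the flavoprotein, had 254, 266 and 242 CPM against 253, 245 and 217 CPM, with a fold change of 0.09 ± 0.16 (edgeR adjusted p = 0.757). The ratio of Sdhc to Sdha CPM was 0.583, 0.616 and 0.740 in FOXR2 replicates 1 to 3 and 0.883, 0.998 and 1.14 in the Control replicates. The ratio is not corrected for length and is read only across libraries. This pair and those of complexes III and V were chosen with their fold changes known, so that their separation is a description and not a further result.

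In complex III, Uqcrh stood apart from the other subunits. It encodes the hinge protein, a small acidic subunit at the cytochrome c1 side. Its levels were 184, 165 and 137 CPM in FOXR2 replicates 1 to 3 and 372, 306 and 425 CPM in the Control replicates. The highest library titled FOXR2 was thus far below the lowest Control library, and the means were 162 ± 23.4 (SD, n = 3) and 367 ± 59.2 CPM (SD, n = 3). The log2 fold change was -1.18 ± 0.20, and Uqcrh was called at an edgeR adjusted p of 0.0437. Leaving out any 1 of the 6 libraries ended the call, with edgeR adjusted p between 0.0667 and 0.158. The length and GC offset also ended it, at a fold change of -0.97 and an edgeR adjusted p of 0.0564.

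Uqcrq, another small subunit, had 174, 161 and 164 CPM against 234, 260 and 237 CPM, and its log2 fold change was -0.55 ± 0.16 (edgeR adjusted p = 0.0952). The groups did not overlap, and the libraries within each group lay close together. Electron transfer through the complex rests on other subunits. Cyc1, cytochrome c1, had 193, 208 and 195 CPM against 180, 180 and 151 CPM, with all libraries titled FOXR2 above all Control and a fold change of 0.23 ± 0.16 (edgeR adjusted p = 0.433). Uqcrfs1, the Rieske iron-sulfur protein, and the core proteins Uqcrc1 and Uqcrc2 overlapped between the groups, with fold changes of -0.14, 0.08 and -0.30 and edgeR adjusted p from 0.506 to 0.841. The ratio of Uqcrh to Cyc1 CPM was 0.952, 0.795 and 0.703 in FOXR2 replicates 1 to 3 and 2.07, 1.70 and 2.82 in the Control replicates.

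In complex IV no gene was called by edgeR, and 8 of 13 tested members lay wholly below Control, against 17.3% of all genes. Cox7c, a small membrane subunit, had 46.4, 43.0 and 40.1 CPM in FOXR2 replicates 1 to 3 and 68.3, 70.4 and 67.9 CPM in the Control replicates. The libraries were tight within each group, and the log2 fold change was -0.67 ± 0.16 (edgeR adjusted p = 0.0666). Cox8a, the ubiquitous form of subunit VIII, had 308, 218 and 243 CPM against 387, 462 and 557 CPM, with a fold change of -0.87 ± 0.22 (edgeR adjusted p = 0.0775). Cox6b1, which lies on the intermembrane side, had 256, 231 and 233 CPM against 357, 362 and 459 CPM, with a fold change of -0.71 ± 0.18 (edgeR adjusted p = 0.0780). Cox7a2, the widely expressed form of subunit VIIa, had 207, 163 and 134 CPM against 267, 271 and 345 CPM, with a fold change of -0.81 ± 0.22 (edgeR adjusted p = 0.0891). In all of these the groups were separate and the p missed the threshold. Cox7b, Cox6a1 and Cox5b were also wholly below Control, with fold changes of -0.78, -0.56 and -0.55. Cox7a1, described below at a low level, was also among the 8.

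Cox6c and Cox5a went the other way in level. Cox6c, a small membrane subunit, had 214, 156 and 209 CPM in FOXR2 replicates 1 to 3 and 122, 117 and 156 CPM in the Control replicates. FOXR2 replicate 2 and Control replicate 3 met, and the log2 fold change was 0.55 ± 0.21 (edgeR adjusted p = 0.160). Cox5a had a fold change of 0.24 ± 0.16 with overlapping groups, and 41.7% of its exon bases lie opposite exons of Gm26631.

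The isoforms known from muscle and testis had low levels, and 6 skeletal and heart muscle markers summed to between 2.26 and 16.8 CPM. Cox7a1, the heart and muscle form of subunit VIIa, had 0.391, 0.440 and 2.04 CPM in FOXR2 replicates 1 to 3 and 2.16, 2.80 and 2.96 CPM in the Control replicates, with an edgeR adjusted p of 0.246. Cox6a2, the muscle form of subunit VIa, reached 7.21 CPM in Control replicate 2 and stayed at or below 2.84 CPM elsewhere. Cox6b2, known from testis, ranged from 0.292 to 9.35 CPM with overlapping groups. Cox8b, Cox8c and Cox7b2 had at most 0.357 CPM in any library and were not tested. Cox7a2l, a factor of respiratory supercomplexes, had a mean of 191 ± 36.7 CPM (SD, n = 3) in the libraries titled FOXR2 and 236 ± 61.5 CPM (SD, n = 3) in Control.

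**Figure D3:**
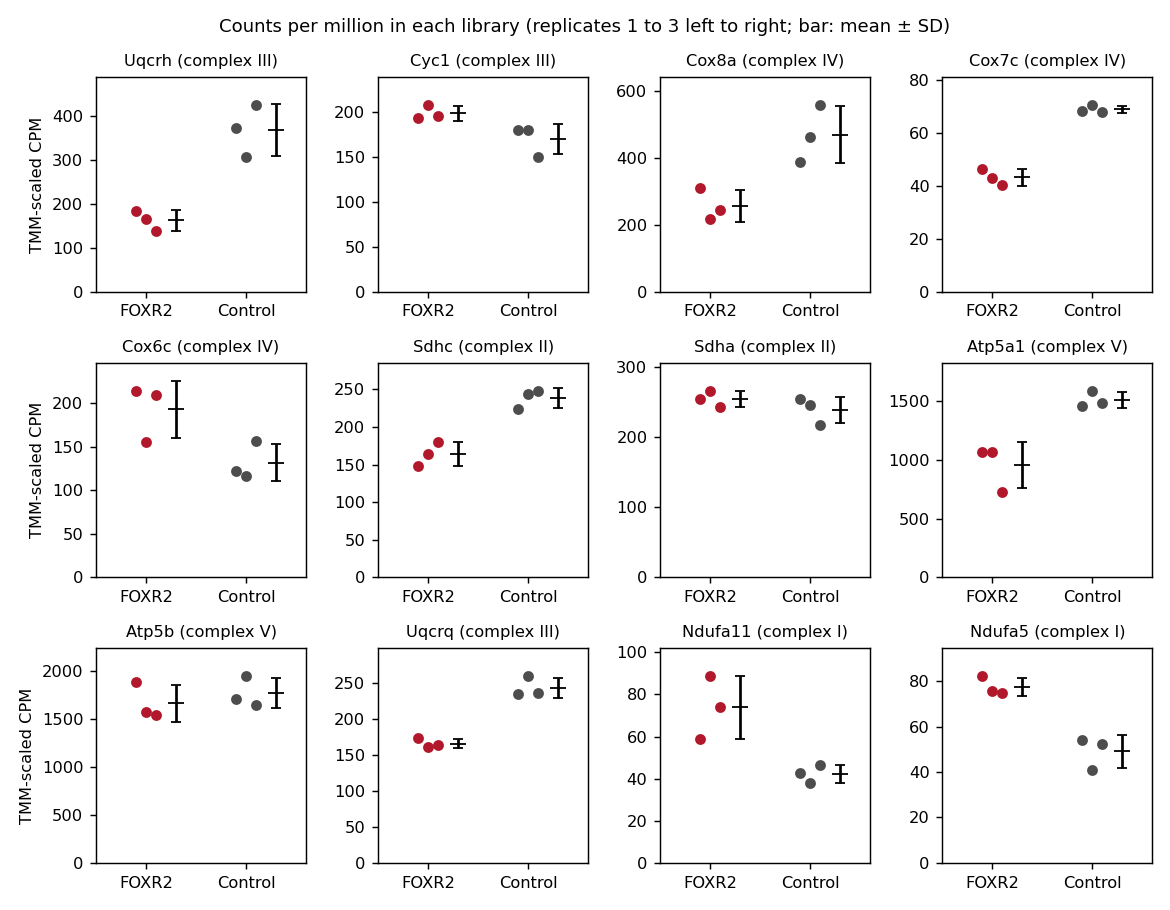
TMM-scaled CPM of 12 members in each library titled FOXR2 (red) or Control (grey), replicates 1 to 3 from left to right, with the mean ± SD beside them and axes starting at 0. Uqcrh, Uqcrq, Cox8a, Cox7c, Sdhc and Atp5a1 are separate and lower in FOXR2, Ndufa11, Ndufa5 and Cyc1 are separate and higher, and Cox6c, Sdha and Atp5b overlap.

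In complex V, the catalytic core was uneven. Atp5a1, the alpha subunit, had 1069, 1069 and 730.4 CPM in FOXR2 replicates 1 to 3 and 1459, 1588 and 1483 CPM in the Control replicates. Its groups were separate, with FOXR2 replicate 3 the lowest, and the log2 fold change was -0.66 ± 0.21 (edgeR adjusted p = 0.115). Atp5b, the beta subunit, which pairs with alpha in the head of the enzyme, had 1881, 1565 and 1535 CPM against 1708, 1940 and 1646 CPM. Its groups overlapped, and the fold change was -0.09 ± 0.18 (edgeR adjusted p = 0.799). The ratio of Atp5a1 to Atp5b CPM was 0.568, 0.683 and 0.476 in FOXR2 replicates 1 to 3 and 0.854, 0.819 and 0.901 in the Control replicates.

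Among the other parts of the synthase, Atp5j, the coupling factor 6 of the stalk, had 165, 173 and 148 CPM against 264, 209 and 267 CPM. The groups were separate, and its log2 fold change was -0.60 ± 0.18 (edgeR adjusted p = 0.106). Of its exon bases, 19.1% lie opposite exons of Gabpa. Atp5e, the epsilon subunit, had 182, 167 and 148 CPM against 211, 199 and 267 CPM, with a fold change of -0.44 ± 0.19 (edgeR adjusted p = 0.201). Atp5f1, subunit b of the stator, had the highest fold change of the complex at 0.28 ± 0.18 with overlapping groups (edgeR adjusted p = 0.382). The 3 genes Atp5g1, Atp5g2 and Atp5g3 encode the same mature subunit c of the membrane ring, and their reads may be shared where the transcripts are alike. They overlapped between the groups, at 0.07 ± 0.19, -0.17 ± 0.23 and 0.00 ± 0.17. Atp5s and Atp5sl carry the name but are not subunits of the enzyme itself, and had at most 9.75 and 21.4 CPM.

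Per kilobase of transcript, the level of the members differed between complexes. The median over members of the mean level was 349 CPM per kilobase in complex V, 243 in complex IV, 190 in complex III, 150 in complex I and 96.7 in complex II. Atp5b was the highest of all at 894 CPM per kilobase, followed by Atp5g2 at 844 and Cox8a at 659. Among the genes named for complex I, Ndufa4 had the highest level at 365 CPM per kilobase and Ndufs1 the lowest at 29.2. These levels rest on 1 annotated transcript per gene and are a description without a test.

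DESeq2, run as an alternative, called 11 members lower and 2 higher, where it called 6.61% and 6.67% of the genes it tested. Among the 11 were Atp5a1, Atp5j, Cox6b1, Cox7a2, Cox7c, Cox8a, Ndufa13, Sdhc, Uqcrh and Uqcrq, and the 2 were Ndufa11 and Ndufa5. The share called lower, 11 of 78, was above the DESeq2 background and the share called higher was below it. Ndufa13, an accessory subunit of complex I, had 231, 228 and 228 CPM in the libraries titled FOXR2 and 305, 316 and 346 CPM in Control, and 30.0% of its exon bases lie opposite exons of Tssk6. All 13 were also members whose libraries did not overlap between groups.

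Genes that build and supply the complexes were described from lists of their own, to be read against 1.38% of all genes called lower and 49.3% fitted below 0. Of 15 tested assembly factors of complex I, none was called, 12 were fitted below 0 and the median log2 fold change was -0.34. Timmdc1, which helps to build the membrane arm, had the smallest p there, with 26.7, 46.2 and 25.4 CPM in FOXR2 replicates 1 to 3 and 82.8, 78.4 and 80.8 CPM in the Control replicates. The libraries were far apart, at a fold change of -1.29 ± 0.26 (edgeR adjusted p = 0.0529). Of 4 complex II factors none was called, with a median of -0.50 and Sdhaf1 at -0.74 ± 0.19 (edgeR adjusted p = 0.0804). Of 6 complex III factors, 3 were fitted below 0 and 3 above, with a median of -0.33. Among them Bcs1l, which inserts the Rieske protein made from Uqcrfs1, was called lower. It had 14.7, 20.3 and 16.8 CPM against 39.2, 40.4 and 38.7 CPM, with a fold change of -1.19 ± 0.20 (edgeR adjusted p = 0.0437). It was still called with the length and GC offset, at -1.09 (edgeR adjusted p = 0.0468).

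Of 19 tested complex IV assembly factors, 17 were fitted below 0, with a median of -0.61 and -0.48 with the offset, and none was called. Sco1, a copper chaperone for the complex, had the smallest p, with 9.26, 8.75 and 12.2 CPM in FOXR2 replicates 1 to 3 and 20.3, 25.7 and 25.8 CPM in the Control replicates. Its fold change was -1.25 ± 0.25 (edgeR adjusted p = 0.0507). Of 3 complex V factors none was called, and Atpaf1, which helps to join the beta subunits, had a fold change of -0.97 ± 0.23 (edgeR adjusted p = 0.0660). Sco2 and Pet117 were listed at 0 in all 6 libraries. The medians of these assembly lists were as far below 0 as those of the subunits of their complexes or further, except in complex IV, where the subunits had -0.67. In the complex III list only 3 of 6 genes were fitted below 0, or 5 of 6 with the length and GC offset.

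All members depend on protein import into mitochondria. Below 0 were 20 of the 21 import genes, against 49.3% of all genes. Their median was -0.52, or -0.46 with the length and GC offset, and 2 of 21, Timm10b and Tomm6, were called lower, against 1.38% of all genes. Timm10b, a small chaperone of the intermembrane space, had 32.1, 28.4 and 24.5 CPM against 59.5, 72.1 and 72.3 CPM, a fold change of -1.26 ± 0.19 (edgeR adjusted p = 0.0388). Tomm6, part of the outer membrane pore complex, had a fold change of -1.25 ± 0.22 (edgeR adjusted p = 0.0438). The 13 genes that maintain or transcribe mitochondrial DNA had a median of -0.50, or -0.40 with the offset, and 12 of them lay below 0. Peo1, the helicase Twinkle, and Tfb2m, a transcription factor of mitochondria, were called lower, at -1.12 ± 0.20 and -1.21 ± 0.22 (edgeR adjusted p = 0.0449 and 0.0474). With the offset the fold changes of Timm10b, Tomm6, Peo1 and Tfb2m were -1.04, -1.05, -1.18 and -1.19, and none was called, with edgeR adjusted p between 0.0526 and 0.0600.

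Ribosomal protein genes gave a scale for the size of the difference. Of 78 tested mitochondrial ribosomal protein genes, 6 were called lower, and 2 with the length and GC offset. Their median was -0.34, or -0.27 with the offset. Of 75 cytosolic ones, 7 were called lower, and 1 with the offset, and their median was -0.75, or -0.57 with the offset. Over all genes 1.38% were called lower, and 1.06% with the offset. The respiratory chain members, at -0.21 and -0.001, were nearer to 0 than both on either scale, although complex IV at -0.67 and -0.50 was close to the cytosolic ribosomal list. Subunits outside the naming rule were few. Cox4i1, the main form of subunit IV, had 558, 440 and 593 CPM in FOXR2 replicates 1 to 3 and 694, 800 and 939 CPM in the Control replicates, separate groups with a fold change of -0.61 ± 0.20 (edgeR adjusted p = 0.129). Cytochrome c itself, Cycs, had a fold change of 0.34 ± 0.24 (edgeR adjusted p = 0.427).

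**Figure D4:**
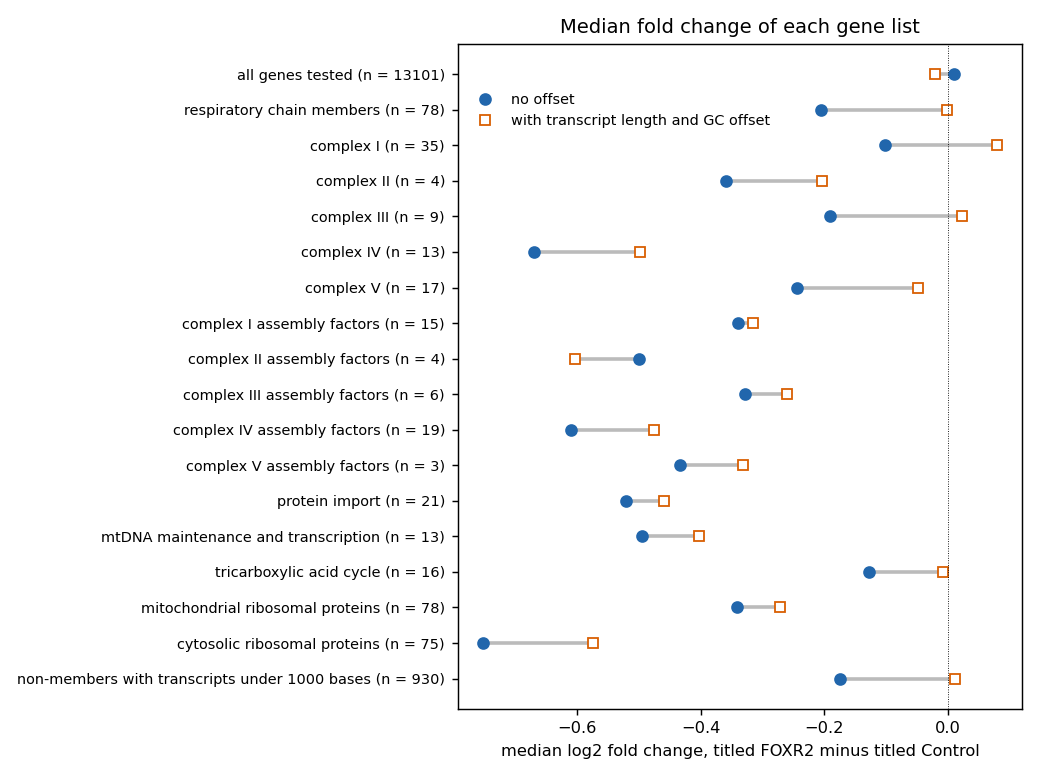
Median log2 fold change (libraries titled FOXR2 minus titled Control) of each list of tested genes, without (filled) and with (open) an offset for transcript length and GC content, with the number of genes tested without it in brackets. The median of all 78 members moved from -0.21 to -0.001 and that of complex IV from -0.67 to -0.50.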

How the data were processed

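RNA was poly(A)-selected and made into strand-keeping libraries, and reads were single and 51 bases long, per the labels' protocols. The authors deposited whole-number counts per gene symbol for 6 libraries. The submitters' processing notes list TopHat, DESeq2 and hg19, a human build, so no coordinate is taken from the counts. The counting tool, annotation, strand use and multi-mapping are named in no source used here. Of the 24537 rows, 23 hold dates in place of symbols and were never named.

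The edgeR 4.0.16 fit (R 4.3.3) was made after filterByExpr with a count minimum of 10, with TMM factors (0.961 to 1.03) and the quasi-likelihood F test, with no covariate. Genes with an adjusted p under 0.05 were called. CPM are TMM-scaled, log2 fold changes use a prior count of 0.125, and ± after them is the standard error. Alternatives were RLE and total-count scaling, no filter, DESeq2 1.42.0, limma-voom (3.58.1), the replicate number as a block, each library left out, and a per-library offset on transcript length and GC (mgcv 1.9.3, GENCODE lengths for 99.4% of tested genes). The script was tested on simulated counts. Promoter windows came from RefSeq. Figures were drawn with matplotlib 3.10.9.

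The members and the gene lists were chosen with earlier results of these data known. Named genes were, in each complex, called members, the 3 with the smallest p, the highest CPM and the highest fold change, plus core subunits, isoform families and members that failed the filter. From each other list they were called genes or the smallest p. Ndufa13, Ndufa4, Cox7b, Cox5b, Cox5a, Cycs, Sco2, Pet117, Atp5s and Atp5sl were named after their values were seen. One gene that this rule takes is not reported here. The 13 called ribosomal protein genes are only counted.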

Additional observations from a re-analysis of the deposited data

How the results depend on the processing

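With RLE factors, total-count scaling, no filter or limma-voom, Uqcrh remained the only member called, and the members' median log2 fold change lay between -0.22 and -0.16. Over all genes, total-count scaling gave 119 lower calls in place of 181. DESeq2 called 938 genes higher and 930 lower, of which 2 and 11 were members. The length and GC offset called 1 member higher and 0 lower and brought the members' median to -0.0012. With it the fold changes of Atp5b, Atp5g2 and Uqcrfs1 turned to 0.010, 0.089 and 0.011. Without the filter Atp5g3 turned to -0.013. The causes were not tested. Leaving out each library in turn gave 1 to 123 higher and 0 to 82 lower calls over all genes, 0 lower calls among members, and a members' median from -0.27 (without Control replicate 1) to -0.14 (without Control replicate 3). Fold changes near 0 turned in some of these fits, with ranges of -0.11 to 0.16 for Atp5g1, -0.076 to 0.069 for Atp5g3, -0.042 to 0.24 for Uqcrc1 and -1.12 to 1.19 for Cox6a2. These turned without FOXR2 replicate 2 or, for Atp5g3 and Cox6a2, without Control replicate 2. Same-numbered libraries did not deviate together (correlations -0.02, -0.24 and -0.01), so the numbers are not taken as pairs. With the replicate number as a block, edgeR called 0 genes higher and 0 lower, 0 members were called lower, Uqcrh had an adjusted p of 0.135, and Cox6a2 turned to 0.17. Counts of 3 corresponded to 0.167 to 0.223 CPM. Members near that level are limited by depth, such as Cox7a1 with 6 and 7 counts in FOXR2 replicates 1 and 2.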

Other observations

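The 9 tested regulators of respiratory genes held no called gene, with a median log2 fold change of -0.06. Ppargc1a, the coactivator PGC-1alpha, had 14.0, 2.58 and 15.4 CPM in FOXR2 replicates 1 to 3 and 3.60, 5.18 and 1.80 CPM in the Control replicates, so FOXR2 replicate 2 lay among the Control libraries (edgeR adjusted p = 0.209). Nrf1, Gabpb1, Esrra and Yy1 had fold changes from -0.06 to 0.10, all with edgeR adjusted p of at least 0.773. Gabpa, the DNA-binding subunit of GABP, had 55.8, 50.2 and 55.0 CPM against 71.6, 68.0 and 64.1 CPM, separate groups with a fold change of -0.34 ± 0.16 (edgeR adjusted p = 0.234).

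The 16 tested genes of the tricarboxylic acid cycle and pyruvate dehydrogenase, which feed electrons to the chain, had a median log2 fold change of -0.13 and none was called. Idh3b, the beta subunit of NAD-dependent isocitrate dehydrogenase, had the smallest p, with 117, 106 and 123 CPM in FOXR2 replicates 1 to 3 and 186, 208 and 205 CPM in the Control replicates. Its fold change was -0.79 ± 0.16 (edgeR adjusted p = 0.0534), while its partners Idh3a and Idh3g had -0.26 ± 0.18 and -0.16 ± 0.25 (edgeR adjusted p = 0.429 and 0.725).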
